A study of Homo sapiens with 6 samples.

Results

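Vitamin D and retinoid signalling genes were examined in Cal33 cells, a line grown from a human squamous carcinoma of the mouth. They are 8 genes named in a list: CYP24A1, VDR, RXRA, RARA, RARG, ALDH1A3, CRABP2 and DHRS3. Each was looked up by its symbol in the deposited abundance table, and all 8 were found among 14136 entries. The list was drawn up with earlier results of these data known, although no measured value enters its rule.

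Total RNA came from 6 libraries in 2 groups. The Vector group (n = 3) carried the empty lentiviral plasmid pSin-EF2, and the CES2 group (n = 3) carried pSin-EF2-CES2-FLAG, which encodes FLAG-tagged carboxylesterase 2, a hydrolase of the endoplasmic reticulum that cleaves esters. Both groups were infected with virus packaged in 293FT cells, selected with puromycin at 0.5 ug/ml and grown in DMEM with 10% fetal bovine serum, with no vitamin D or retinoid treatment named in the labels. The labels do not say whether the 3 libraries of a group are separate cultures or infections, or whether the selected cells were a pool or a clone, so the p-values measure only the spread between these libraries, which may be technical. The design asks what differs in the transcriptome when CES2 is overexpressed.

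Vitamin D acts through VDR, a nuclear receptor that binds DNA as a heterodimer with RXR and is activated by calcitriol, the hormonal form of the vitamin. CYP24A1, the enzyme that inactivates calcitriol, is itself a classical VDR target and so closes a negative loop. Retinoic acid is made from retinol by way of retinal and acts through RAR, which also pairs with RXR, and in squamous epithelium it restrains keratinisation.

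Abundance is given in TPM, a relative transcript abundance that corrects for transcript length and scales each library to the same total. Differences are log2 fold changes of CES2 against Vector on the log2(TPM + 1) scale, fitted with limma over 12210 genes that reached 1 TPM in at least 3 libraries. All 8 genes passed that filter. Adjusted p refers to Benjamini-Hochberg correction over all of these genes. TPM keeps no sequencing depth, so no counting interval can be given.

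The overexpressed gene matched the labels. CES2 measured 45.6, 41.9 and 44.9 TPM across the Vector libraries and 2664, 1929 and 2294 TPM across the CES2 libraries (log2 fold change 5.66 ± 0.18 SE, limma adjusted p = 7.38e-06), and it was the only gene of 12210 past an adjusted p of 0.05, which is 0.00819% of those tested. Squamous epithelial markers summed to 3564 to 4855 TPM for Vector and 3379 to 4941 TPM for CES2, with KRT5 at 1031 to 2597 TPM but the basal keratin KRT14 only at 1.14 to 2.97 TPM. The fibroblast marker COL1A1 was at 3.89 to 10.5 TPM, the 3 immune markers with an entry summed to at most 12.3 TPM in a library, and the 3 endothelial markers summed to 10.2 to 25.8 TPM, most of it CDH5 at 8.25 to 25.3 TPM. The other 4 fibroblast and 2 immune markers on those lists were not analysed here.

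For none of the 8 vitamin D and retinoid genes was a difference between Vector and CES2 found beyond the spread of the libraries. Unadjusted limma p ran from 0.0637 for CYP24A1 to 0.934 for RXRA, and the intervals given for each gene show what sizes of difference these libraries leave possible. The count past an adjusted p of 0.05 was 0 of 8 by limma, each with adjusted p = 0.9998, and 0 of 8 had an unadjusted p under 0.05, against 1.09% of all tested genes. The unadjusted count depended on the fit for CYP24A1 and ALDH1A3. CYP24A1 had an unadjusted limma p of 0.0201 with the replicate number as a block (1.1% of all tested genes were under 0.05 in that fit), 0.00396 with library weights (5.09%), 0.0385 without Vector 1 (1.4%) and 0.0008 without CES2 3 (2.1%). ALDH1A3 had 0.0239 with library weights and 0.0463 without Vector 2 (2.01%), and the adjusted p of both genes stayed at 0.444 or above in these fits. The library weights were 6.86 for CES2 1, 0.748 for CES2 2 and 0.513 for CES2 3, so CES2 1 dominates its group in that fit. The 2 groups overlapped in every one of the 8, as they did in most genes, with 3.7% of all tested genes not overlapping. Bulk RNA cannot tell fewer expressing cells from less RNA per cell for any of these genes. Of the 8, 5 had a positive and 3 a negative log2 fold change, with a median of 0.07, and the median over all tested genes was -0.057. With 3 libraries against 3 the exact permutation test of a single gene cannot go below p = 0.1.

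**Figure D1:**
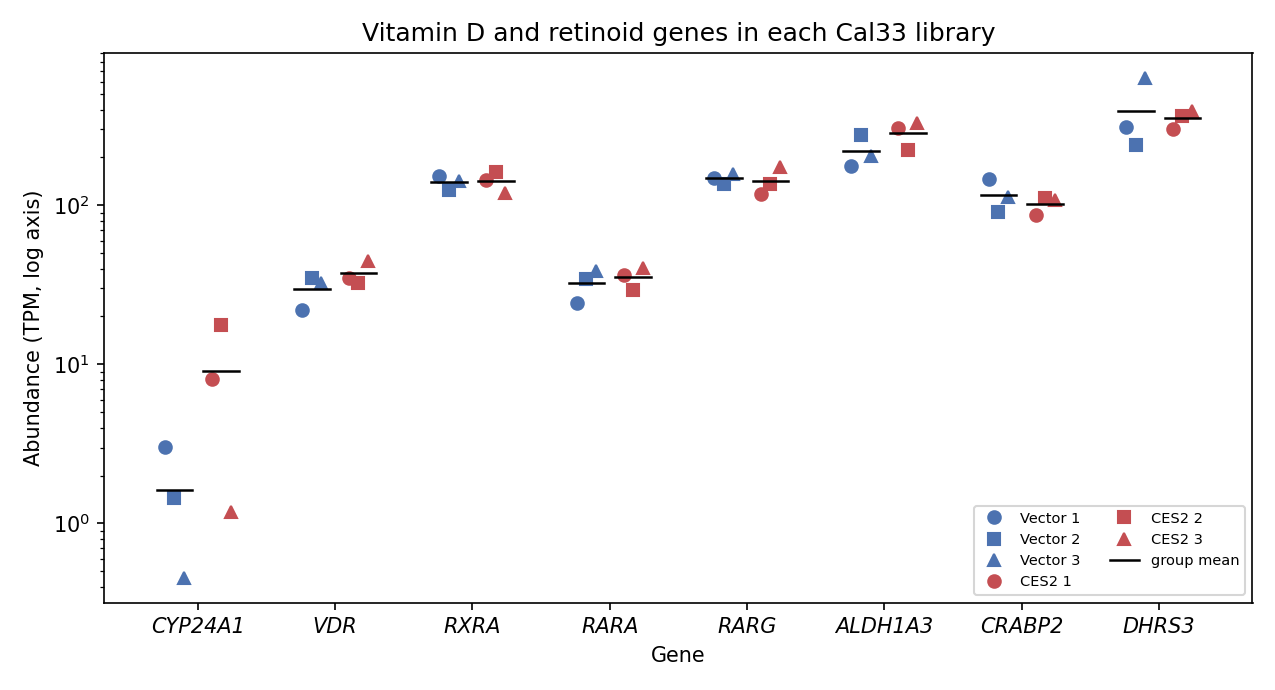
Abundance of each gene (x axis) in TPM on a log axis, with 1 point per library (blue Vector, red CES2, marker shape for the replicate number) and a black bar at each group's mean. Groups overlap for every gene, and CYP24A1 spans from 0.456 to 17.8 TPM while the others stay within 2.64-fold of their lowest library.

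CYP24A1, the mitochondrial 24-hydroxylase that breaks down calcitriol, had the largest log2 fold change of the 8 and also the widest scatter. The gene (ENSG00000019186, chr20:54153449-54173973, minus strand, GRCh38) is listed with a coding transcript of 12 exons and 3262 bases. The Vector libraries held 3.00, 1.44 and 0.456 TPM, and the CES2 libraries held 8.13, 17.8 and 1.18 TPM. Replicates 1 and 2 of CES2 lay above all Vector libraries, but replicate 3 of CES2 lay below Vector 1 and Vector 2. The means were 1.63 ± 1.28 TPM and 9.03 ± 8.34 TPM (SD, n = 3 each), a 5.54-fold ratio. The log2 fold change was 1.57 ± 0.74 (SE) with a 95% interval of -0.11 to 3.26, an unadjusted limma p of 0.0637 and an adjusted p of 0.9998, and the exact two-sided permutation test gave p = 0.3.

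The scatter of CYP24A1 within groups was among the highest in the data. Its residual SD was 1.23 log2 units, above that of 99.2% of tested genes, where the median gene had 0.311. Within CES2 alone the highest library was 15.0 times the lowest, and within Vector 6.58 times. The log2 fold change was 0.88 without CES2 2 and 2.44 without CES2 3, and the ratio of means ranged from 2.85 to 9.54 as single libraries were left out. The lowest adjusted p among these was 0.444, without CES2 3. At a mean of 5.33 TPM over the 6 libraries the gene stood at percentile 14.3 of tested genes by level, so a pseudocount of 1 compresses its difference, which was 2.05 with a pseudocount of 0.1.

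Genes whose log2 values ran most like CYP24A1 over the 6 libraries were named by the highest Pearson r, as a description with no test. They were MTCH1 (r = 0.994), a mitochondrial outer membrane protein gene, ATF3 (r = 0.992), a stress-induced transcription factor gene, LCN2 (r = 0.990), which encodes the siderophore-binding protein lipocalin 2, SPIN2B (r = 0.985), and SOD1 (r = 0.985), the cytosolic superoxide dismutase gene. SPIN2B has a close paralogue, so its value is uncertain. LCN2 measured 840, 476 and 432 TPM across the Vector libraries and 1666, 2860 and 584 TPM across the CES2 libraries. Its order of libraries within each group was that of CYP24A1, which choosing genes by r favours. MTCH1 spanned only 345 to 408 TPM, which shows that r ignores the size of a change. In all, 20 of the 12210 tested genes had r of at least 0.95. With 6 libraries and so many genes, r this high can arise without a relation, and no relation was tested.

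VDR, the receptor for calcitriol, was expressed at a moderate and steadier level. The gene (ENSG00000111424, chr12:47841537-47905022, minus strand) measured 22.0, 34.7 and 32.6 TPM across the Vector libraries and 35.1, 32.3 and 44.7 TPM across the CES2 libraries. Vector 1 was the lowest and CES2 3 the highest, while the other 4 libraries fell between 32.3 and 35.1 TPM. The means were 29.8 ± 6.78 and 37.4 ± 6.52 TPM (SD, n = 3 each), and the log2 fold change was 0.33 ± 0.24 (SE) with a 95% interval of -0.22 to 0.88 (limma adjusted p = 0.9998, exact permutation p = 0.3). CES2 3, the library with the most VDR, had the least CYP24A1 of the CES2 group.

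RXRA encodes the retinoid X receptor alpha, the shared partner of VDR and the RARs, and it was the steadiest of the 8, with a residual SD of 0.187 log2 units. The gene (ENSG00000186350, chr9:134326580-134437019, plus strand) measured 153, 125 and 142 TPM across the Vector libraries and 144, 163 and 120 TPM across the CES2 libraries. The CES2 values enclosed the Vector values on both sides. The log2 fold change was 0.02 ± 0.19 (SE), and its 95% interval corresponds to 0.752-fold to 1.36-fold. RXRA made up 72.8% to 79.8% of the summed RXRA and RXRB transcripts in a library, and RXRG was not analysed here. In every library RXRA exceeded VDR, by 2.68 to 6.92 times.

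Retinoic acid receptors were represented mainly by RARG, the form typical of skin and other stratified epithelia. RARG (ENSG00000172819, chr12:53210567-53232256, minus strand) measured 149, 137 and 157 TPM across the Vector libraries and 118, 136 and 174 TPM across the CES2 libraries. CES2 held both the lowest and the highest value. The means were 147 ± 10.1 and 143 ± 28.1 TPM (SD, n = 3 each), and the log2 fold change was -0.06 ± 0.19 (SE).

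RARA, the broadly expressed form, stood about as high as VDR. The gene (ENSG00000131759, chr17:40309192-40348336, plus strand) measured 24.5, 34.5 and 38.7 TPM across the Vector libraries and 36.7, 29.1 and 40.3 TPM across the CES2 libraries, a log2 fold change of 0.13 ± 0.24 (SE) with a 95% interval of -0.41 to 0.67. The ranges of the 2 groups overlapped, with Vector 1 lowest. Of the summed RARA, RARB and RARG transcripts, RARG made up 75.5% to 84.2%, RARA 13.8% to 23.4% and RARB 0.850% to 2.13%. The listed RARA transcript has 4 exons and 733 bases and is annotated in GENCODE release 29 as a fragment with no coding end, where the longest coding transcript has 3041 bases. Which length entered its TPM is not given in the sources used here, so its share rests on that.

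**Figure D2:**
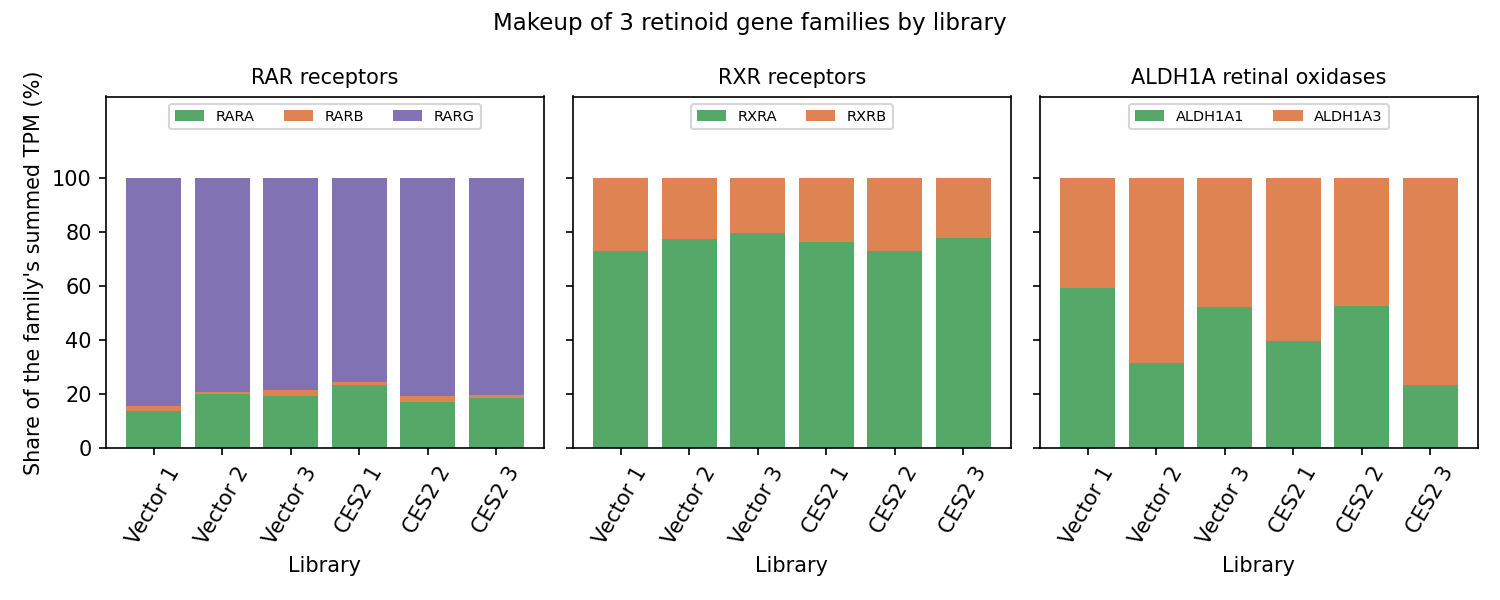
Share of each family's summed TPM (y axis, percent) in each library (x axis) for the retinoic acid receptors, the retinoid X receptors and the ALDH1A retinal oxidases with an entry in the table. RARG and RXRA dominate their families in every library, while the ALDH1A3 share runs from 40.7% to 68.3% in Vector and from 47.5% to 76.8% in CES2.

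ALDH1A3, the aldehyde dehydrogenase that oxidises retinal to retinoic acid, had the second largest log2 fold change. The gene (ENSG00000184254, chr15:100877714-100892987, plus strand) measured 176, 275 and 205 TPM across the Vector libraries and 305, 223 and 328 TPM across the CES2 libraries. CES2 1 and CES2 3 lay above all Vector libraries and CES2 2 lay below Vector 2. The means were 219 ± 51.3 and 285 ± 55.2 TPM (SD, n = 3 each), and the log2 fold change was 0.39 ± 0.23 (SE) with a 95% interval of -0.15 to 0.92 (limma unadjusted p = 0.135, adjusted p = 0.9998, exact permutation p = 0.2). Its listed transcript has 571 bases and likewise lacks a coding end, against 3924 bases for the longest coding transcript in GENCODE release 29.

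The balance of ALDH1A3 and its relative ALDH1A1 varied from library to library, and the groups overlapped. ALDH1A3 made up 40.7%, 68.3% and 47.7% of their sum across Vector and 60.4%, 47.5% and 76.8% across CES2. Libraries Vector 2 and CES2 3 had the highest shares of their groups. The level of these shares, like that of RARA, rests on the length used for ALDH1A3. ALDH1A1 itself ranged from 128 to 256 TPM over the Vector libraries and from 99.2 to 246 TPM over the CES2 libraries, a log2 fold change of -0.20 ± 0.38 (SE), and ALDH1A2 was not analysed here.

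CRABP2 encodes the cellular protein that carries retinoic acid to its receptors in the nucleus. The gene (ENSG00000143320, chr1:156699606-156705601, minus strand) measured 147, 90.8 and 112 TPM across the Vector libraries and 86.7, 112 and 108 TPM across the CES2 libraries. Vector 1 stood above the rest, and the other 5 libraries lay between 86.7 and 112 TPM. The means were 116 ± 28.2 and 102 ± 13.7 TPM (SD, n = 3 each), and the log2 fold change was -0.17 ± 0.22 (SE) with a 95% interval of -0.68 to 0.34.

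DHRS3, a reductase that returns retinal to retinol and is itself induced by retinoic acid, was the most abundant of the 8. The gene (ENSG00000162496, chr1:12567910-12617731, minus strand) measured 312, 240 and 631 TPM across the Vector libraries and 301, 363 and 390 TPM across the CES2 libraries. Vector 2 was the lowest and Vector 3 the highest of all 6 libraries, so the CES2 values lay inside the Vector range. The means were 394 ± 209 and 351 ± 45.5 TPM (SD, n = 3 each), and the log2 fold change of -0.05 ± 0.33 (SE) was 0.35 without Vector 3 and 0.0091 after median rescaling. DHRS3 exceeded RDH10, the retinol dehydrogenase it opposes and binds, by 8.27 to 13.3 times in a library, with mean ratios of 11.7 for Vector and 9.55 for CES2 whose libraries overlapped.

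**Figure D3:**
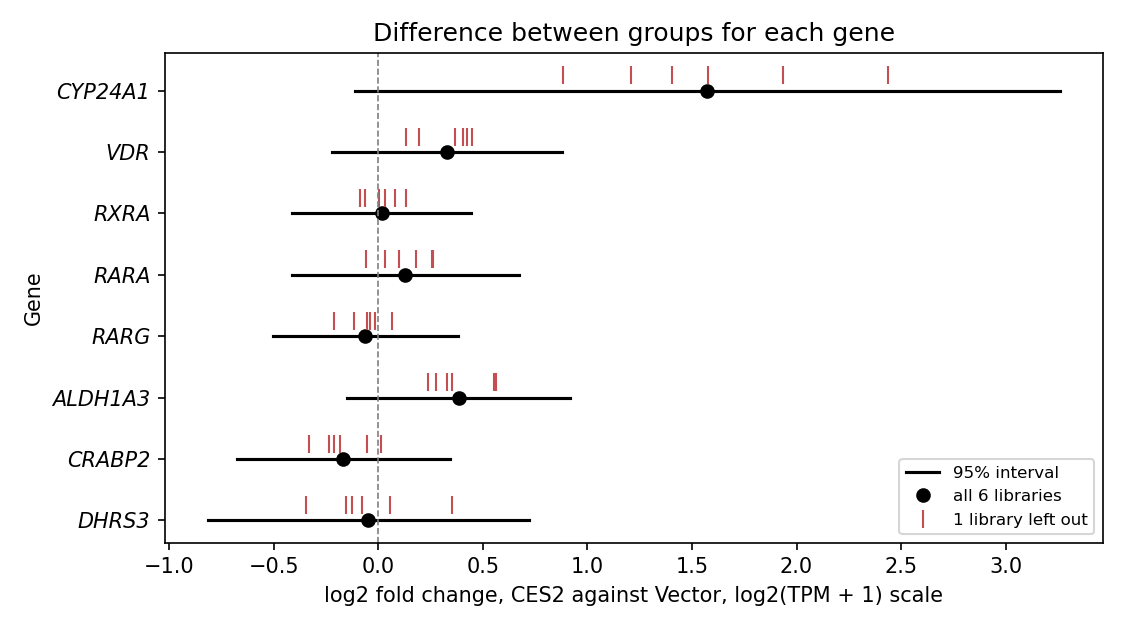
Log2 fold change of CES2 against Vector (x axis, log2(TPM + 1) scale) for each gene (y axis), with black points for all 6 libraries, black lines for 95% intervals and red ticks for the values with 1 library left out. Every interval includes 0, and the ticks of CYP24A1 spread from 0.88 to 2.44.

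The order of levels over the 6 libraries was DHRS3 (mean 373 TPM), ALDH1A3 (252 TPM), RARG (145 TPM), RXRA (141 TPM), CRABP2 (109 TPM), RARA (34.0 TPM), VDR (33.6 TPM) and CYP24A1 (5.33 TPM). Ranges of neighbours overlapped for DHRS3 and ALDH1A3, RARG and RXRA, RXRA and CRABP2, and RARA and VDR. They did not overlap between ALDH1A3 and RARG, CRABP2 and RARA, or VDR and CYP24A1. The places of ALDH1A3 and RARA in this order rest on the transcript length behind their TPM, which is not known, and could change with another length. The retinoid binding and metabolic genes stood at percentile 85.3 or above among tested genes by level, and RARA and VDR near the middle at 55.7 and 55.3.

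The same libraries recurred as extremes. CES2 3 was highest for VDR, RARA, RARG and ALDH1A3, 4 of the 8, and lowest for RXRA. Vector 1 was lowest for VDR, RARA and ALDH1A3 and highest for CRABP2. Over the 28 pairs of genes, Pearson r of the log2 values across the 6 libraries ran from -0.784 to 0.883. The highest was VDR with ALDH1A3 (Spearman rho 0.943, r = 0.824 within groups, and r = 0.955 without Vector 1 and CES2 3), and the lowest was ALDH1A3 with CRABP2 (rho -0.829, r = -0.772 within groups, and r = -0.980 without the same 2 libraries). VDR with RARA had r = 0.875 (rho 0.829, r = 0.911 within groups), which was 0.377 without those 2 libraries. The libraries left held VDR only at 32.3 to 35.1 TPM, so r over them is uncertain for this pair and for VDR with ALDH1A3. The r of -0.980 for ALDH1A3 with CRABP2 rests on the same few libraries and is uncertain too. These correlations and extremes are descriptions of 6 libraries that share a scaling to one total. Vector 1 correlated at 0.682 with CES2 2 and at -0.678 with CES2 3 in deviations from the group means over all tested genes. Libraries thus differed across the transcriptome, and how often other genes share these extremes was not counted.

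Promoter sequences were taken from the RefSeq table (GRCh38.p14), which held 11 windows for 6 of the 8 genes, and the 250 bases before each start site were searched on both strands for the 6-base receptor half-sites: the common form AGGTCA, the variant AGTTCA, the variant GGTTCA and the variant GGGTCA. A half-site was present in 5 of the 11 windows, beside 33.8% of all 35116 windows in the table. A pair in the same direction, spaced by 2, 3 or 5 bases, was in 0 of the 11 windows and in 0.0313%, 0.0655% and 0.0740% of all windows. Such a match is a description of letters, not a site. Of the 4 windows whose start lies within 200 bases of the deposited transcript's start (RXRA, RARA, RARG and CRABP2), the 2 with a half-site are shown 5′ to 3′ on the gene's strand, since both genes belong to the retinoic acid branch, with half-sites in capitals. The RARA window is chr17:40308930-40309179, plus strand, with AGGTCA starting 230 bases before the start site and GGGTCA on the opposite strand, seen as TGACCC, its first printed base 92 bases before the start site. The CRABP2 window is chr1:156705785-156706034, minus strand, with GGTTCA 249 bases before the start site.
RARA: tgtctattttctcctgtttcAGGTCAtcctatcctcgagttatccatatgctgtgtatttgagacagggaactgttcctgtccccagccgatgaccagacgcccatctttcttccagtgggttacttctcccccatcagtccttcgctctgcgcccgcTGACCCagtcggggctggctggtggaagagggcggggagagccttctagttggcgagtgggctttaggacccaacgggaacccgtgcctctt
CRABP2: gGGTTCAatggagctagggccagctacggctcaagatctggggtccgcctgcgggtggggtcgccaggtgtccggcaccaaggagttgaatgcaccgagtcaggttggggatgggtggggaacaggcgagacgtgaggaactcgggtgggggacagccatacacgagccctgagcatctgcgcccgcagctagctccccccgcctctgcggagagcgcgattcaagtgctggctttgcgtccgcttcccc

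The wider pathway lists likewise held no gene past the threshold. They cover uptake, metabolism, receptors, coregulators and target genes of both vitamins, and 55 distinct genes of them were tested, of which 0 passed in either direction, 24 were above 0 and 31 below, with a median log2 fold change of -0.045. An unadjusted limma p under 0.05 was found for 1 of the 55. Groups did not overlap for 1 gene with higher CES2 values, HBEGF, and 3 with lower ones, RARRES3, LRAT and NRIP1. Over all 12210 tested genes 1.09% had such a p, and groups did not overlap in 131 higher and 321 lower genes, 3.7% in all.

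Vitamin D genes outside the 8 held no called gene. CYP27B1, the enzyme that makes calcitriol, ranged from 0.151 to 1.42 TPM over the Vector libraries and from 0.339 to 0.886 TPM over the CES2 libraries and did not reach the filter. Of uptake and activation genes only DHCR7, which draws the vitamin D precursor into cholesterol synthesis, was tested (log2 fold change 0.16 ± 0.25 SE). Of 8 tested vitamin D target genes 0 passed in either direction, 5 were above 0 and 3 below, with a median of 0.09. HBEGF, an EGF receptor ligand, measured 8.68, 11.6 and 5.64 TPM across the Vector libraries and 12.2, 12.5 and 12.1 TPM across the CES2 libraries, a log2 fold change of 0.51 ± 0.28 (SE, limma unadjusted p = 0.0986, adjusted p = 0.9998). Its CES2 values were tight and all lay above Vector, and the log2 fold change was 0.27 without Vector 3 and 0.73 without Vector 2. IGFBP3, which binds insulin-like growth factors, had a log2 fold change of 0.91 ± 0.54 (SE) that rested on CES2 1 at 18.5 TPM, against 6.25 and 3.47 TPM in the other CES2 libraries, and it was 0.32 without that library. Values were -0.23 for KLF4 and -0.36 for TRPV6, an epithelial calcium channel.

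Among retinoid handling genes, LRAT was the only tested gene whose groups did not overlap. Of 6 tested uptake, storage and binding genes 0 passed, 2 were above 0 and 4 below (median -0.06). LRAT, which esterifies retinol for storage, measured 1.97, 2.29 and 2.83 TPM across the Vector libraries and 1.75, 1.22 and 0.715 TPM across the CES2 libraries, a log2 fold change of -0.61 ± 0.30 (SE, limma unadjusted p = 0.0699). RBP5 was at -0.46, but at -0.073 without CES2 3 and -0.71 without CES2 2. DGAT1 was at 0.20, with a range of 0.086 to 0.33 as single libraries were left out, and the retinol-binding protein receptor STRA6 was at 0.15. Of 9 tested oxidation and reduction genes 0 passed, 4 were above 0 and 5 below (median -0.05), with log2 fold changes of -0.32 for DHRS9, 0.23 for RDH10 and 0.21 for AKR1B10. CYP26B1, which degrades retinoic acid, ranged from 4.88 to 6.37 TPM over the Vector libraries and from 3.91 to 6.16 TPM over the CES2 libraries, a log2 fold change of -0.17 ± 0.26 (SE).

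Retinoic acid target genes lay mostly below 0, with a median that depended on single libraries. Of 12 tested 0 passed, 3 were above 0 and 9 below, with a median of -0.28, against -0.057 for all tested genes, of which 63.7% were below 0. After median rescaling the count below 0 was 9 again with a median of -0.22, and 49.8% of all tested genes were below 0. The count ranged from 7 to 12 as single libraries were left out, with 50.7% to 67.2% of all tested genes below 0. The median was -0.15 without Vector 1, -0.14 without Vector 3 and -0.42 without Vector 2. RARRES3, a phospholipase of the retinoic acid responder family, measured 22.1, 25.1 and 36.2 TPM across the Vector libraries and 12.5, 19.5 and 17.3 TPM across the CES2 libraries. Every CES2 library lay below every Vector library, and the log2 fold change was -0.72 ± 0.26 (SE, limma unadjusted p = 0.0254, adjusted p = 0.9998). NRIP1, a ligand-dependent corepressor, ranged from 11.7 to 13.1 TPM over the Vector libraries and from 8.66 to 10.5 TPM over the CES2 libraries, a log2 fold change of -0.30 ± 0.21 (SE), and MEIS2 was at -0.26. DHRS3 and CRABP2, which retinoic acid also induces, were not counted in this list and had log2 fold changes of -0.05 and -0.17.

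Partner receptors and coregulators held no called gene either. Of 11 tested partner receptors 0 passed, 6 were above 0 and 5 below (median 0.07), with NR4A1 at -0.40, RARB at -0.33, NR1H2 at -0.13 and PPARA at 0.14. NR4A1 was at -0.0025 without CES2 3 and -0.74 without CES2 2, and RARB at -0.14 without Vector 3 and -0.62 without Vector 2. Of 11 tested coregulators 0 passed and 9 were below 0 (median -0.05). The count was 5 after median rescaling, 6 after quantile normalization, 5 without CES2 2 and 2 without Vector 3. It was 8 without CES2 1, and 10 with library weights, without Vector 1, without Vector 2 and without CES2 3. Of all tested genes 63.7% were below 0 in the main fit (median -0.057), 49.8% after median rescaling and 52.8% after quantile normalization. That share was 59.3% without CES2 2 and 50.7% without Vector 3. It was 63.5% without CES2 1, 62.4% with library weights, 61% without Vector 1, 67.2% without Vector 2 and 58.3% without CES2 3. NCOA2 was at -0.27 and NCOA1 at -0.25. Of the genes that retinoic acid lowers in keratinocytes, KRT10 and TGM1 were tested, with log2 fold changes of 0.10 and 0.03.

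**Figure D4:**
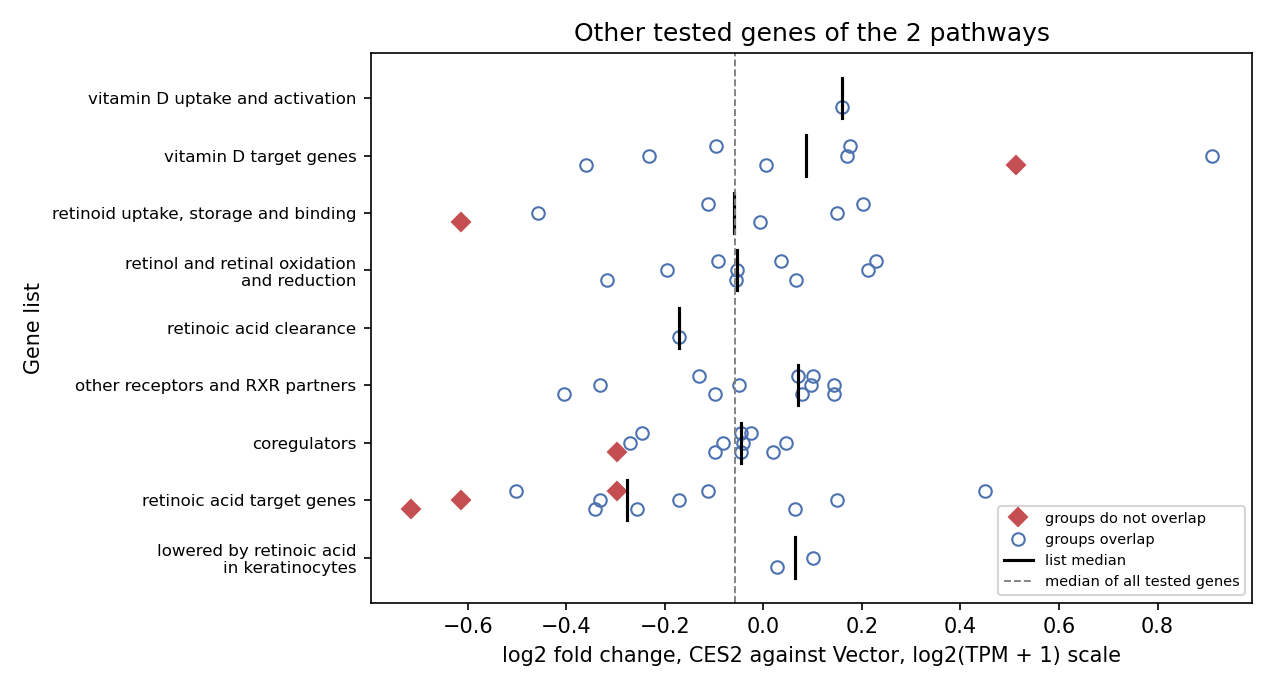
Log2 fold change of CES2 against Vector (x axis, log2(TPM + 1) scale) for the other tested genes of the pathways by list (y axis), with filled diamonds where the groups do not overlap, black bars at list medians and a dashed line at the median of all tested genes. A gene on more than 1 list is drawn on each, as LRAT and NRIP1 are, and the retinoic acid targets have a median of -0.28, which is -0.14 without Vector 3.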

How the data were processed

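RNA was sequenced from 6 Cal33 libraries, 3 Vector and 3 CES2. The deposited table gives TPM values, recognised from column sums of 999804 to 999893 since its header names no unit. HISAT2 2.1.0, StringTie 1.3.3, edgeR 3.0.8 and the builds hg38 and GRCh38 appear in the submitters' processing notes, with no role for each. How strand was handled is not given in the sources used here, and per the labels' protocols the libraries were ribosomal-depleted and strand-specific. Of 14136 entries 607 were blank in at least 1 library, and blanks were read as 0. The 12210 genes that reached 1 TPM in 3 or more libraries were fitted as log2(TPM + 1) in limma 3.58.1 (R 4.3.3), with an intensity trend, group as the only term and Benjamini-Hochberg adjustment across all genes. The fit was tested on simulated data. Permutation tests used scipy 1.17.1 in Python 3.11.15, two-sided and exact. Members and lists were chosen with earlier results of these data known. The genes named are the members and CES2, up to 4 tested genes of each pathway list with the smallest unadjusted p, the 5 genes most like CYP24A1 and the cell type markers. A coregulator that the rule names is not reported here. CYP27B1 and RXRB fall outside this rule and were added after their values were seen. CCL2, CXCL1, CXCL3 and RTEL1-TNFRSF6B also fall outside it and are named because they were called in alternative fits. Alternatives covered each library left out, replicate block, scaling, filters, pseudocounts, trend and library weights. Depth is unknown.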

Additional observations from a re-analysis of the deposited data

How the results depend on the processing

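The 8 genes stayed on the same side of the threshold in all of the 15 alternatives that gave them a value, and the lowest adjusted p of any was 0.444. CYP24A1 could not be fitted with a filter of 5 TPM in 3 libraries. Signs changed for genes near 0: with single libraries left out, log2 fold changes ranged from -0.087 to 0.13 for RXRA, -0.057 to 0.26 for RARA, -0.21 to 0.064 for RARG, -0.33 to 0.013 for CRABP2 and -0.34 to 0.35 for DHRS3, which was 0.0091 after median rescaling. With library weights, highest for CES2 1 at 6.86, DHRS3 was at -0.41, CRABP2 at -0.35 and RARG at -0.28, beyond those ranges, CYP24A1 at 2.04 and ALDH1A3 at 0.495. CYP24A1 ranged from 0.88 to 2.44, VDR from 0.13 to 0.45 and ALDH1A3 from 0.24 to 0.56, with no change of sign. The number of the 8 whose groups did not overlap ranged from 0 to 2 as single libraries were left out. It was 2 without Vector 2 (ALDH1A3 and CRABP2, with 18.0% of all tested genes), without CES2 2 (VDR and ALDH1A3, with 8.69%) and without CES2 3 (CYP24A1 and RARG, with 12.0%). Among the other list genes, ranges with single libraries left out were -0.14 to 0.56 for STRA6, -0.50 to 0.19 for ALDH1A1, -0.14 to 0.70 for AKR1B10, -0.019 to 0.45 for PPARA, -0.26 to 0.024 for NR1H2, -0.39 to 0.0066 for NCOA1, -0.079 to 0.32 for KRT10 and -0.24 to 0.53 for TGM1. Ranges over 1.5 times without a change of sign included -0.68 to -0.20 for TRPV6, -0.345 to -0.086 for KLF4, 0.054 to 0.52 for RDH10, -0.44 to -0.10 for DHRS9, 0.040 to 0.39 for DHCR7, -0.30 to -0.029 for CYP26B1, -0.48 to -0.090 for NCOA2 and -0.37 to -0.061 for MEIS2. They also included -0.86 to -0.52 for RARRES3, -0.78 to -0.44 for LRAT and -0.34 to -0.22 for NRIP1. RARRES3 had an unadjusted limma p of 0.0944 without Vector 3 and 0.107 without CES2 1, and under 0.05 in the other alternatives. It was at -1.07 with library weights. With library weights NR1H2 was at 0.0215 and 4 genes were higher in CES2 (CES2, CCL2, CXCL1 and CXCL3, none of them among the 8). The number of genes lower in CES2 ranged from 0 to 1 as single libraries were left out, and the 1 gene, without CES2 3, was RTEL1-TNFRSF6B. The cause of these changes was not tested.

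Vector and CES2 libraries share replicate numbers, but the labels do not say that a number marks a shared culture or day. Deviations from the group means correlated at 0.145, -0.524 and 0.375 for numbers 1, 2 and 3, and Vector 1 deviated most like CES2 2 (0.682), so the numbers were not read as pairs. With the replicate block CES2 was the 1 gene higher and 0 were lower. In this balanced design the block leaves every fold change as it is (1.57 for CYP24A1) and changes only its error, and the unadjusted limma p of CYP24A1 went from 0.0637 to 0.0201, with adjusted p = 0.9999.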
